A study of Mus musculus with 48 samples.

Results

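The 6 libraries described here came from the visceral white fat of female mice that had spent 12 weeks on 1 of 2 diets, and they are 6 of the 48 libraries of the study. They were chosen by the column names of the deposited count table: 3 libraries of females on a fat-rich diet (HFD, with 45% of its calories as fat; libraries 3, 6 and 7) and 3 libraries of females on a regular diet (RD, standard rodent chow; libraries 5, 7 and 8). All mice were C57BL6/J, and feeding started at 8 weeks of age, so the animals of both groups were also older than those of the 2-week cohort. The study holds liver and visceral fat of both sexes after 2 and 12 weeks, as 3 libraries in each of 16 groups, and its title asks what diet-induced obesity does to gene expression that differs between the sexes. Values of 12-week males (3 HFD, 3 RD) and of 2-week females (3 HFD, 3 RD) are given only beside those of the 12-week females. The labels number the libraries and do not say whether each came from 1 animal, so the p-values measure a spread between libraries. That spread was estimated over all 24 visceral fat libraries in 8 groups, not from these 6 alone. RD is a chow, so the diets as a whole were compared.

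Visceral fat stores triglyceride in adipocytes, which take up fatty acids and also make them from glucose through citrate, acetyl-CoA and malonyl-CoA. When fat is stored in excess the adipocytes enlarge, secrete more leptin and switch on a small set of genes, among them Mest in mice. The tissue around them, collagen fibres, vessels, macrophages and progenitor cells, is remodelled at the same time. These libraries are of bulk tissue, in which fewer cells of a type and less RNA per cell cannot be told apart.

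The libraries held between 44.7 M and 74.8 M expected counts each. The adipocyte markers matched the labelled tissue: Adipoq, which encodes adiponectin, was at 3507, 2784 and 3544 CPM in the HFD libraries, against 3484, 3445 and 2731 CPM in the RD libraries, where CPM is expected counts per 1 M counts, with library sizes scaled by TMM, and the sets of values overlapped. All 21 adipocyte markers were detected, and none of them passed the test in edgeR, against 4 with an unadjusted edgeR p under 0.05 and 2 called by DESeq2. Among all 18325 genes tested, 2649 had such a p and DESeq2 called 1002. Single libraries stood apart in other tissue markers. RD library 7 held transcripts of steroid-producing ovarian cells, with 362 CPM of Cyp11a1, 27.2 CPM of Inha and 10.8 CPM of Amh, where the other 5 libraries held 0.758 to 1.48, 0.648 to 1.99 and 0.0694 to 0.226 CPM. HFD library 3 held 8.02 CPM of the pancreatic gene Ctrb1, against 0.0323 to 0.111 CPM elsewhere. RD library 8 was the lowest RD library for genes of fatty acid synthesis, with values given beside those genes.

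Across the 18325 genes that passed the filter on low counts, 381 differed between HFD and RD at a Benjamini-Hochberg adjusted p under 0.05 in edgeR's quasi-likelihood test, and these are the genes written of here as called, or as having risen or fallen. They make up 2.08% of the genes tested: 239 (1.3%) were higher on HFD and 142 (0.775%) were lower. Both shares are the background for every list count in these females below. The median log2 fold change of all genes was -0.02, so the scale was centred near no change. Of the 381, 184 had risen by more than 1 on the log2 scale and 91 had fallen by more than 1. All 239 that rose and 137 of the 142 that fell had no overlap between the 3 HFD and the 3 RD libraries, where 28.6% of all genes tested had none. The number of calls depended on each library: it was 189, 162 and 138 without HFD library 3, 6 or 7, and 92, 151 and 305 without RD library 5, 7 or 8. A core of 78 genes, 61 higher and 17 lower, was called in all 6 of these fits. Of a single gene it is said that its call held only without the named library or libraries where it passed in those fits and in no other of the 6.

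Among the genes that rose furthest were markers of growing fat tissue. Mest, an imprinted gene of the alpha/beta hydrolase fold family whose transcript follows fat expansion in mice, was at 1121, 871 and 969.9 CPM in the HFD libraries 3, 6 and 7, against 12.8, 24.3 and 15.7 CPM in the RD libraries 5, 7 and 8. Its log2 fold change was 5.81 ± 0.54 (SE, edgeR adjusted p = 2.81e-05), a 56.2-fold difference, and no HFD library came near an RD one. Sfrp5, a secreted Wnt antagonist made by adipocytes, was at 241, 121 and 361 CPM in the HFD libraries, against 2.05, 3.56 and 5.94 CPM in the RD libraries, with a log2 fold change of 5.96 ± 0.59 (SE, edgeR adjusted p = 2.83e-05). Leptin, the hormone that signals fat stores to the brain, is encoded by Lep, which was at 2333, 3257 and 2609 CPM in the HFD libraries, against 222, 368 and 225 CPM in the RD libraries. The log2 fold change of Lep was 3.33 ± 0.52 (SE, edgeR adjusted p = 0.00179), and RD library 7 was the highest of its group. Klf14, an imprinted zinc finger transcription factor, was at 28.1, 17.1 and 23.8 CPM in the HFD libraries, against 1.11, 0.853 and 0.812 CPM in the RD libraries, with a log2 fold change of 4.63 ± 0.53 (SE, edgeR adjusted p = 1.60e-04). In all 4 genes the groups were clear of each other by a wide margin.

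The promoters of 3 of these genes are printed because they belong to 3 of the genes that rose furthest on the fat-expansion list. They are RefSeq windows on GRCm38.p6, from 250 bases before to 50 after an annotated start, and 13 of the 24 genes furthest up or down in fold change had such a window; Mest has 3, of which 1 is shown. Capitals mark matches to 5 searched motifs on either strand. They were the GC box GGGCGG, the upstream promoter motif CCAAT, which reads ATTGG on the reverse strand, the core promoter motif TATAAA, the core of nuclear receptor sites AGGTCA, and the E-box motif CACGTG.
Mest promoter, chr6:30737800-30738099, plus strand: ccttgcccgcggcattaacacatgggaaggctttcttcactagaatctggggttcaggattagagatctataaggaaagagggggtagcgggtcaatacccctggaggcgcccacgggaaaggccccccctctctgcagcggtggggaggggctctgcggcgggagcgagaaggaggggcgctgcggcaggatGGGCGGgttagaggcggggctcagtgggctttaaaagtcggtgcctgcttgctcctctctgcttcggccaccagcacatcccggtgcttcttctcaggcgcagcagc
Lep promoter, chr6:29059971-29060270, plus strand: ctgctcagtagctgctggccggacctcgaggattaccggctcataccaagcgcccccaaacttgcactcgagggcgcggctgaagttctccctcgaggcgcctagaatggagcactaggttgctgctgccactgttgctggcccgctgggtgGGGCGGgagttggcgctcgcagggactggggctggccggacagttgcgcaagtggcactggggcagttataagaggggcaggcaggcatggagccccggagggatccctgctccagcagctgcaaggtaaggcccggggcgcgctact
Sfrp5 promoter, chr19:42202203-42202502, minus strand: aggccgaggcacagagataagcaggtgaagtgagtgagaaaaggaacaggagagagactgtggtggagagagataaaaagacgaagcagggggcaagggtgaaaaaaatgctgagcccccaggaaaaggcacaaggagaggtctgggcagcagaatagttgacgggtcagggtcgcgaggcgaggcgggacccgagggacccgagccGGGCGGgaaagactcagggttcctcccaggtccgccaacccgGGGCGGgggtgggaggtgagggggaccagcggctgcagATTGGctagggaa
The windows of Mest and Lep hold 1 GC box each, and that of Sfrp5 holds 2 GC boxes and 1 CCAAT, on the reverse strand. In the whole table of 32851 windows, 35.7% hold GGGCGG, 37.4% CCAAT, 16.3% AGGTCA, 13.6% TATAAA and 7.15% CACGTG. Of the 13 named genes with a window, 6 have GGGCGG, 3 CCAAT, 2 TATAAA, 1 CACGTG and 0 AGGTCA in at least 1 of their windows. No motif overlapped another in the 3 printed windows. A match is a description of these letters, not a site or a cause.

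These 4 genes belong to a list of 23 tested genes of fat expansion and adipokines, of which 6 rose (background 1.3%) and 0 fell, with a list median of 0.69 on the log2 scale. The other 2 were Npr3, the clearance receptor of natriuretic peptides, and Rarres2, which encodes chemerin. The list was chosen with earlier results of these data known, so its share of calls is not independent of them. Npr3 was at 1309, 1285 and 1340.3 CPM in the HFD libraries, against 241, 358 and 381 CPM in the RD libraries, with a log2 fold change of 2.01 ± 0.45 (SE, edgeR adjusted p = 0.0232). Rarres2 was at 91.2, 86.0 and 97.7 CPM in the HFD libraries, against 30.6, 42.8 and 38.3 CPM in the RD libraries, with 1.30 ± 0.28 (SE, edgeR adjusted p = 0.0209). Both calls were lost in all 6 fits that left out 1 library, and in both genes the groups did not overlap. Among members that did not pass the test, Bmp3 had a log2 fold change of 1.68 (edgeR adjusted p = 0.199) and the adipokine gene Nrg4 one of -1.0 (edgeR adjusted p = 0.227). Ptrf, the older symbol of the caveolar coat gene Cavin1, had 0.69 (edgeR adjusted p = 0.242).

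**Figure D1:**
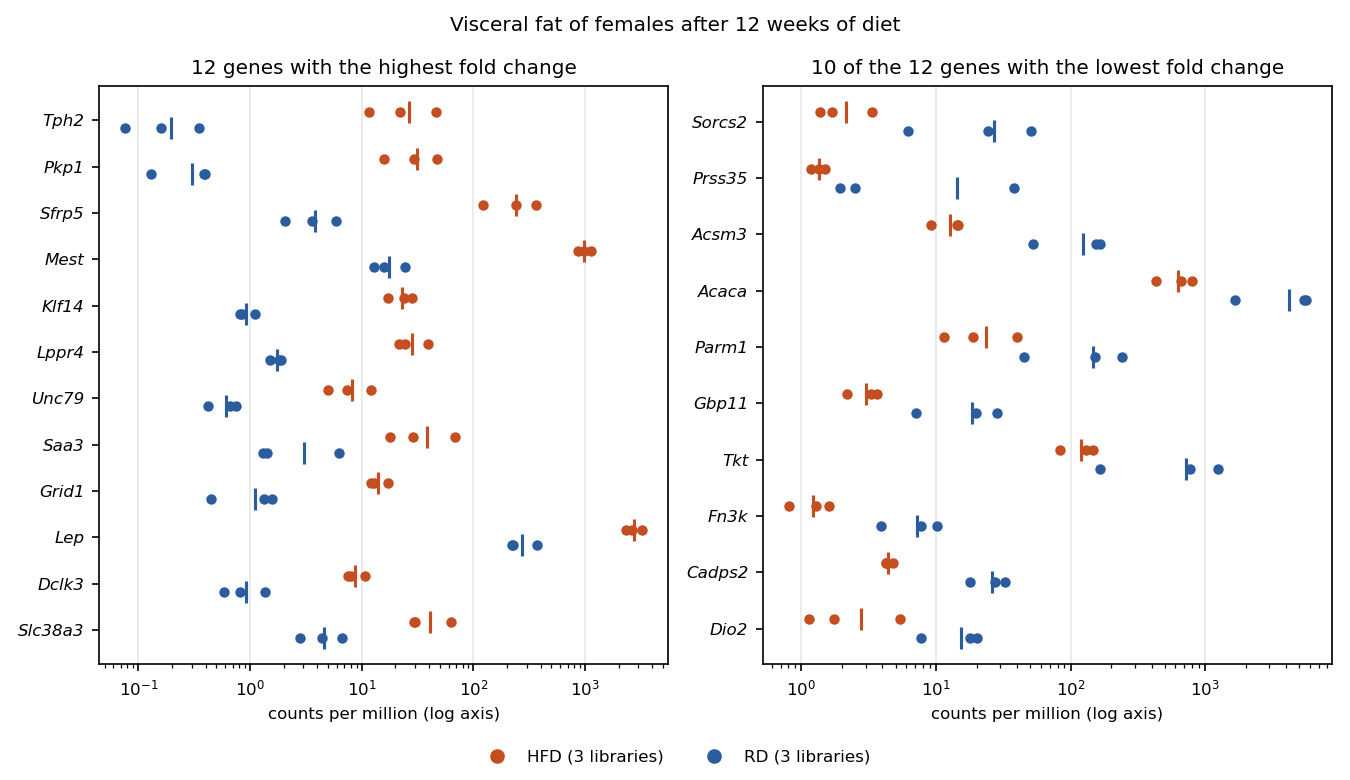
CPM of 22 named genes, the 12 furthest up and 10 of the 12 furthest down, in each of the 6 libraries (points; log axis), with HFD above RD in each row and the group mean as a vertical tick. By the rule that chose the genes, the 3 HFD points of a row lie on one side of its 3 RD points; the RD mean of Prss35 rests on 1 library at 38.3 CPM.

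By rule, the 12 highest genes were those with the largest fold change among called genes with a mean log2 CPM of at least 1, no overlap and a full gene symbol. Beside Mest, Sfrp5, Klf14 and Lep they were Tph2, Pkp1, Lppr4, Unc79, Saa3, Grid1, Dclk3 and Slc38a3. Tph2, the tryptophan hydroxylase known from serotonin neurons, was at 11.6, 46.3 and 21.9 CPM in the HFD libraries, against 0.161, 0.352 and 0.0761 CPM in the RD libraries, with a log2 fold change of 7.10 ± 0.90 (SE, edgeR adjusted p = 2.63e-04). Pkp1, a plakophilin of desmosomes, was at 47.6, 29.7 and 15.9 CPM in the HFD libraries, against 0.129, 0.390 and 0.393 CPM in the RD libraries, with 6.66 ± 1.03 (SE, edgeR adjusted p = 0.00156). All 3 RD libraries were under 1 CPM for both genes. Lppr4, a phospholipid phosphatase-related membrane protein, was at 24.4, 39.2 and 21.5 CPM in the HFD libraries, against 1.90, 1.52 and 1.80 CPM in the RD libraries. Its log2 fold change was 4.02 ± 0.58 (SE, edgeR adjusted p = 9.20e-04). Unc79, a subunit of the NALCN sodium leak channel complex, and Grid1, a glutamate receptor delta subunit, had log2 fold changes of 3.74 (edgeR adjusted p = 2.34e-04) and 3.65 (edgeR adjusted p = 0.0155).

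Slc38a3, a glutamine transporter, was at 29.6, 63.3 and 29.8 CPM in the HFD libraries, against 4.37, 6.68 and 2.80 CPM in the RD libraries, with a log2 fold change of 3.15 ± 0.73 (SE, edgeR adjusted p = 0.0281). Dclk3, a doublecortin-like kinase, had 3.26 ± 0.63 (SE, edgeR adjusted p = 0.0104). Of the 12 highest genes, 8 were called in all 6 fits without 1 library. Dclk3 was lost without RD library 5 and Grid1 without RD library 5 or 7. Saa3 was lost in 5 of the 6, kept only without RD library 8, and Slc38a3 in all 6. Slc5a7, the choline transporter of cholinergic neurons, lay outside the rule for its low mean and was picked after its values were seen: it was at 19.6, 16.9 and 34.8 CPM in the HFD libraries, against 0, 0.0928 and 0 CPM in the RD libraries. Its adjusted p was 2.81e-05 in edgeR, and 2 of the 3 RD libraries held no count.

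Of 25 tested genes of fatty acid and triglyceride synthesis 4 fell on HFD, against a background of 0.775% lower, and none rose; the list median was -1.10. Acaca, acetyl-CoA carboxylase 1, which makes malonyl-CoA for the fatty acid chain, was at 660.2, 797 and 429.7 CPM in the HFD libraries, against 5615, 5389 and 1652 CPM in the RD libraries. Its log2 fold change was -2.75 ± 0.69 (SE, edgeR adjusted p = 0.0434). The HFD libraries were all below the RD ones, and RD library 8 was far below the other RD libraries. Acacb, the mitochondrial acetyl-CoA carboxylase, was at 67.4, 91.7 and 77.8 CPM in the HFD libraries, against 541, 391 and 282 CPM in the RD libraries, with -2.36 ± 0.49 (SE, edgeR adjusted p = 0.0157). Elovl6, which lengthens palmitate, was at 117, 241 and 41.9 CPM in the HFD libraries, against 1928, 2218 and 238 CPM in the RD libraries, and fell by 3.45 ± 0.81 on the log2 scale (SE, edgeR adjusted p = 0.0281). Here the groups touched, since RD library 8 lay just under HFD library 6. Fads1, the delta-5 desaturase, was at 56.3, 73.7 and 59.4 CPM in the HFD libraries, against 191, 188 and 132 CPM in the RD libraries, with -1.43 ± 0.33 (SE, edgeR adjusted p = 0.0277). The calls of Acaca and Fads1 held only without RD library 8, that of Acacb without RD library 7 or 8, and that of Elovl6 without HFD library 6 or RD library 8.

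Fasn, fatty acid synthase, was at 865, 790.2 and 327 CPM in the HFD libraries, against 4074, 4643 and 816 CPM in the RD libraries, and Acly, ATP citrate lyase, at 466, 796 and 341 CPM in the HFD libraries, against 4280.2, 6212 and 429 CPM in the RD libraries. Neither passed the test, with log2 fold changes of -2.27 (edgeR adjusted p = 0.0702) and -2.77 (edgeR adjusted p = 0.0929). In both, RD library 8 lay within the range of the HFD libraries, while RD libraries 5 and 7 were well above it. Without RD library 8 the list held 8 lower calls and a median of -1.44. Without RD library 7 or HFD library 6 it held 1, and without RD library 5, HFD library 3 or HFD library 7 it held 0. The median stayed between -1.44 and -0.84 in those 6 fits. The 12 female libraries alone gave 2 lower calls, and DESeq2 gave 10. RD library 8 was also the highest of the 6 for the mean level of the interferon, T and NK cell, and macrophage lists; the part of these differences in the result was not tested.

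Further called genes of carbohydrate metabolism were picked after their values were seen and stand for no group. Tkt, transketolase of the pentose phosphate pathway, was at 130.4, 146 and 82.7 CPM in the HFD libraries, against 768, 1238 and 166 CPM in the RD libraries, with a log2 fold change of -2.60 ± 0.59 (SE, edgeR adjusted p = 0.0249). Gpd2, the mitochondrial glycerol-3-phosphate dehydrogenase, was at 48.5, 54.9 and 40.3 CPM in the HFD libraries, against 266, 216 and 95.1 CPM in the RD libraries, with -2.00 ± 0.39 (SE, edgeR adjusted p = 0.0113). Pdha1, the E1 alpha subunit of pyruvate dehydrogenase, had -1.36 ± 0.30 (SE, edgeR adjusted p = 0.0208), and Pdk1, a kinase that inhibits it, had -1.42 ± 0.27 (SE, edgeR adjusted p = 0.0106). Both the enzyme and its kinase were lower on HFD. The calls of Tkt, Pdha1 and Gpi1 held only without RD library 8, and those of Gpd2 and Pdk1 were lost without HFD library 7 or RD library 5. Pdk1 was the 1 call of 15 hypoxia and glycolysis genes, and Gpi1, glucose-6-phosphate isomerase, a called gene outside that list, had -0.78 ± 0.19 (SE, edgeR adjusted p = 0.0355).

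Among 22 genes of fatty acid oxidation, 1 rose (background 1.3%) and 1 fell (background 0.775%), with a median of -0.21. Cpt1a, the carnitine palmitoyltransferase that admits long-chain fatty acids to mitochondria, was at 168, 160.3 and 183 CPM in the HFD libraries, against 90.3, 81.9 and 114 CPM in the RD libraries, with a log2 fold change of 0.84 ± 0.17 (SE, edgeR adjusted p = 0.0131). Acot2, a mitochondrial acyl-CoA thioesterase, was at 13.8, 11.1 and 15.6 CPM in the HFD libraries, against 25.6, 21.6 and 27.0 CPM in the RD libraries, with -0.88 ± 0.20 (SE, edgeR adjusted p = 0.0287). The call of Cpt1a was lost without HFD library 7, RD library 5 or RD library 7, and that of Acot2 was lost in all 6 fits without 1 library. Acsm3, a medium-chain acyl-CoA synthetase and one of the 12 lowest genes, was at 14.6, 9.11 and 14.4 CPM in the HFD libraries, against 154, 52.5 and 164 CPM in the RD libraries, with -3.28 ± 0.41 (SE, edgeR adjusted p = 2.38e-04). The median of the oxidation list was -0.02 without RD library 5. None of 23 oxidative phosphorylation genes was called, although all 23 log2 fold changes were negative, with a median of -0.43, or -0.26 without RD library 5. Their mean log2 CPM was 7.05 in RD library 8, within the 6.99 to 7.17 of the HFD libraries, and 7.79 and 7.63 in RD libraries 5 and 7. At an unadjusted edgeR p under 0.05, 6 of the 23 were lower, and DESeq2 called 0. Over all 18325 genes tested, 2649 had such a p in either direction.

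The thermogenic adipocyte list had 2 lower calls among 16 tested genes (background 0.775%) and a median of -0.56. Ppargc1a, the coactivator PGC-1alpha, was at 2.63, 2.76 and 3.46 CPM in the HFD libraries, against 11.7, 9.13 and 16.1 CPM in the RD libraries, with a log2 fold change of -2.06 ± 0.49 (SE, edgeR adjusted p = 0.0301). Dio2, the deiodinase that makes active thyroid hormone, was at 1.73, 5.4 and 1.13 CPM in the HFD libraries, against 20.2, 7.74 and 17.8 CPM in the RD libraries, with -2.47 ± 0.59 (SE, edgeR adjusted p = 0.0327). Every HFD library was below every RD library in both genes. Cidea was at 1.80, 8.40 and 0.892 CPM in the HFD libraries, against 39.2, 17.4 and 16.2 CPM in the RD libraries and Ucp1, the uncoupling protein of brown and beige fat, at 2.24, 17.9 and 0.131 CPM in the HFD libraries, against 37.9, 29.2 and 41.5 CPM in the RD libraries, and neither passed the test (edgeR adjusted p = 0.0937 and 0.428). HFD library 6 was the highest HFD library for Dio2, Cidea and Ucp1. Leaving out 1 library ended the Ppargc1a call in all 6 fits and the Dio2 call in all but the fits without HFD library 6 or RD library 7.

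**Figure D2:**
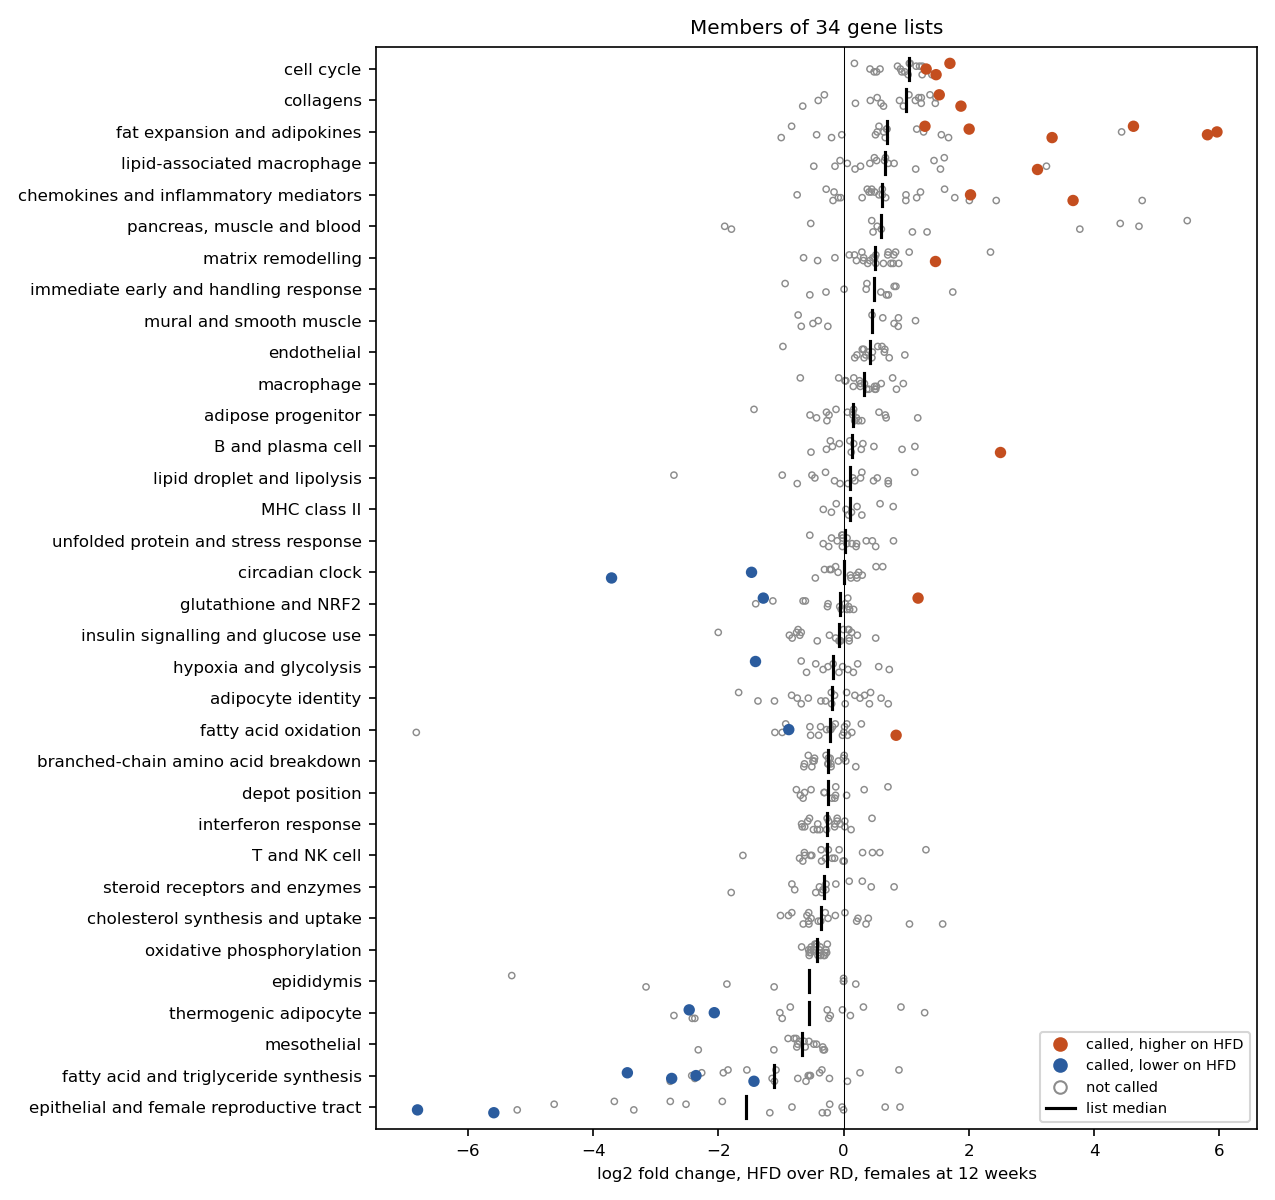
Log2 fold change, HFD over RD, of each tested member of 34 gene lists, ordered by list median (black bar), with called members filled. Lists with called members at the right include fat expansion, cell cycle, collagens, chemokines, lipid-associated macrophage, and B and plasma cell. The fatty acid synthesis list has its 4 called members at the left.

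The further genes named from the 12 lowest have varied roles. Cadps2, a factor of dense-core vesicle release, was at 4.22, 4.27 and 4.77 CPM in the HFD libraries, against 32.4, 18.0 and 27.4 CPM in the RD libraries, with a log2 fold change of -2.55 ± 0.25 (SE, edgeR adjusted p = 2.83e-05). Fn3k, fructosamine-3-kinase, had -2.56 ± 0.39 (SE, edgeR adjusted p = 0.00152). Cadps2, Fn3k and Acsm3 were called in all 6 fits without 1 library. Sorcs2, a receptor of the sortilin family, Gbp11, of the guanylate-binding protein family, and Parm1 had log2 fold changes of -3.66, -2.61 and -2.64, with edgeR adjusted p of 0.0402, 0.0252 and 0.0312. Gbp11 is annotated as a polymorphic pseudogene. The call of Sorcs2 held only without RD library 8, that of Gbp11 only without RD library 7 and that of Parm1 only without HFD library 6 or RD library 8. Prss35, of the serine protease family, was at 1.17, 1.35 and 1.5 CPM in the HFD libraries, against 1.92, 38.3 and 2.49 CPM in the RD libraries. RD library 7, the library with ovarian transcripts, stood far above the rest. Without that library the log2 fold change of Prss35 was -0.71 (edgeR adjusted p = 0.426), and the call held only without RD library 5 or 8.

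Amh and Cyp11a1, both markers of ovarian cells, were the 2 lower calls of 18 epithelial and reproductive tract genes (background 0.775%). Without RD library 7, which held 482 CPM of that list in sum against 12.7 to 18.4 CPM in the HFD libraries, no member was called. Both calls held only without RD library 5 or 8. Without RD library 7 the log2 fold change of Cyp11a1 was 0.18 (edgeR adjusted p = 0.991), and that of Amh -1.20 (edgeR adjusted p = 0.410). Epcam was at 0 in all 6 libraries. Irf4, a transcription factor of immune cells and adipocytes picked after its values were seen, was at 27.8, 15.8 and 17.4 CPM in the HFD libraries, against 153, 25.0 and 331 CPM in the RD libraries, with a log2 fold change of -3.06 ± 0.61 (SE, edgeR adjusted p = 0.0127), and its call was lost without HFD library 6 or 7 or RD library 8. In the circadian clock list 2 of 16 genes fell (background 0.775%), among them Npas2, a partner of Arntl. Npas2 was at 3.89, 3.38 and 5.57 CPM in the HFD libraries, against 12.4, 13.9 and 9.27 CPM in the RD libraries, with -1.47 ± 0.38 (SE, edgeR adjusted p = 0.0487), and was lost in all 6 fits. Arntl itself was at 8.35, 10.3 and 14.7 CPM in the HFD libraries, against 14.4, 16.7 and 14.5 CPM in the RD libraries (edgeR adjusted p = 0.400).

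Chains of collagen VI, which forms microfibrils around adipocytes, rose. Col6a2 and Col6a1 were the 2 called of 20 collagen genes (background 1.3% higher), and none fell. Col6a2 was at 1615, 1786 and 1466 CPM in the HFD libraries, against 425, 349.9 and 553 CPM in the RD libraries, with a log2 fold change of 1.87 ± 0.35 (SE, edgeR adjusted p = 0.00861). Col6a1 was at 1403, 1413 and 1239.8 CPM in the HFD libraries, against 429, 344 and 633 CPM in the RD libraries, with 1.53 ± 0.33 (SE, edgeR adjusted p = 0.0208). The list median was 1.00, 17 of the 20 log2 fold changes were positive, and 12 genes had no overlap between the groups, where 28.6% of all genes tested had none. The third chain, Col6a3, was at 785, 669 and 549.5 CPM in the HFD libraries, against 232, 166 and 328 CPM in the RD libraries and did not pass (edgeR adjusted p = 0.119), nor did the basement membrane chain Col4a1 (log2 fold change 1.20, edgeR adjusted p = 0.190). RD library 8 had the highest mean collagen level of the RD group, 7.71 on the log2 CPM scale, against 7.21 and 6.93 in RD libraries 5 and 7 and 8.00 to 8.25 in the HFD libraries. Without it 3 collagens were called; 1 was called in each of the 3 fits without an HFD library, and none without RD library 5 or 7. The call of Col6a2 was lost without RD library 5 or 7, and that of Col6a1 held only without RD library 8. When only the 6 libraries were fitted 10 were called, and DESeq2 called 6.

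Sparc, a secreted collagen-binding protein, was the 1 call of 26 matrix remodelling genes and held in all 6 fits. It was at 5084, 5468 and 5589 CPM in the HFD libraries, against 1815, 1954 and 2087 CPM in the RD libraries, with a log2 fold change of 1.46 ± 0.19 (SE, edgeR adjusted p = 2.91e-04). Outside the lists, Pcolce2, an enhancer of procollagen processing, had 2.11 ± 0.25 (SE, edgeR adjusted p = 2.14e-04), and Prelp, a matrix leucine-rich repeat protein, had 2.48 ± 0.42 (SE, edgeR adjusted p = 0.00322). Both were picked after their values were seen, and both held in all 6 fits.

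The macrophage list had 0 calls among 21 tested genes in edgeR and 0 in DESeq2. At an unadjusted edgeR p under 0.05 there were 4, where 2649 of all 18325 genes tested had such a p. The list median was 0.33, which became 0.14 without RD library 7 and 0.62 without RD library 8. Cd68, a lysosomal marker of macrophages, was at 54.4, 71.2 and 74.6 CPM in the HFD libraries, against 28.3, 27.3 and 47.8 CPM in the RD libraries (edgeR adjusted p = 0.179). Emr1, the older symbol of the F4/80 gene, was at 77.6, 89.2 and 119 CPM in the HFD libraries, against 58.7, 43.9 and 95.8 CPM in the RD libraries (edgeR adjusted p = 0.365), with RD library 8 inside the HFD range. Of 19 genes of lipid-associated macrophages, the cells that gather around dying adipocytes, 1 rose. That gene was Mmp12, macrophage elastase, at 12.1, 41.2 and 88.7 CPM in the HFD libraries, against 2.94, 10.2 and 3.64 CPM in the RD libraries, with a log2 fold change of 3.08 ± 0.69 (SE, edgeR adjusted p = 0.0243), and its call held only without HFD library 3 or RD library 7.

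Trem2, the receptor that defines those cells, was at 8.51, 11.9 and 14.3 CPM in the HFD libraries, against 5.79, 3.86 and 5.95 CPM in the RD libraries and did not pass (edgeR adjusted p = 0.270). The list median was 0.65, and 16 of the 19 log2 fold changes were positive. At an unadjusted edgeR p under 0.05, 9 of the 19 were higher and 0 lower, and DESeq2 called 3. Over all 18325 genes tested, 2649 had such a p in either direction and DESeq2 called 1002. Of 27 chemokine and inflammatory genes 2 rose (background 1.3%): Il1rn, the interleukin 1 receptor antagonist, and Saa3, an acute-phase serum amyloid. Il1rn was at 1.87, 7.29 and 4.33 CPM in the HFD libraries, against 0.919, 1.21 and 1.18 CPM in the RD libraries, with a log2 fold change of 2.03 ± 0.47 (SE, edgeR adjusted p = 0.0275). Saa3 was at 18.0, 69.0 and 28.6 CPM in the HFD libraries, against 1.42, 1.32 and 6.33 CPM in the RD libraries, with 3.67 ± 0.92 (SE, edgeR adjusted p = 0.0445). HFD library 6 was the highest for both, and the call of Il1rn held only without HFD library 3 and that of Saa3 only without RD library 8. Ccl2, the monocyte chemokine, was at 6.48, 14.7 and 8.23 CPM in the HFD libraries, against 2.56, 3.02 and 1.74 CPM in the RD libraries without passing the test (edgeR adjusted p = 0.0875). Further acute-phase and innate genes, picked from the calls after their values were seen, were Lbp, which binds lipopolysaccharide, and Hp, haptoglobin. Lbp was at 364, 441 and 359 CPM in the HFD libraries, against 80.4, 129.8 and 81.2 CPM in the RD libraries, with 2.00 ± 0.25 (SE, edgeR adjusted p = 2.61e-04). Hp was at 1444, 1498 and 2549 CPM in the HFD libraries, against 528, 398 and 551 CPM in the RD libraries, with 1.89 ± 0.40 (SE, edgeR adjusted p = 0.0175). The call of Lbp held in all 6 fits, and that of Hp was lost without HFD library 7 or RD library 5 or 7.

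In the B and plasma cell list, 1 of 14 genes rose: Ighm, the constant region of the IgM heavy chain. It was at 783, 1074 and 719 CPM in the HFD libraries, against 146, 215 and 97.0 CPM in the RD libraries, with a log2 fold change of 2.49 ± 0.40 (SE, edgeR adjusted p = 0.00233) that held in all 6 fits. The other B cell markers did not pass with it: Cd79a was at 1.65, 1.80 and 2.57 CPM in the HFD libraries, against 1.53, 1.69 and 1.72 CPM in the RD libraries, and the light chain Igkc at 145, 240.2 and 163 CPM in the HFD libraries, against 157, 279 and 198 CPM in the RD libraries. Neither passed (edgeR adjusted p = 0.809 and 0.910). No gene of the T and NK cell (20 tested), MHC class II (10), interferon response (21), endothelial (16), mural (11), mesothelial (16) or progenitor (19) lists was called in edgeR. Over the 20 lists with no call, 48 of 331 genes had an unadjusted edgeR p under 0.05, and DESeq2 called 10. Over all 18325 genes tested, 2649 had such a p and DESeq2 called 1002.

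All 20 cell cycle genes had positive log2 fold changes, with a median of 1.04, and 3 rose (background 1.3%). Ube2c, a ubiquitin-conjugating enzyme of mitotic exit, was at 7.67, 11.6 and 6.14 CPM in the HFD libraries, against 2.65, 3.62 and 3.91 CPM in the RD libraries, with a log2 fold change of 1.32 ± 0.29 (SE, edgeR adjusted p = 0.0211). Cdk1, the mitotic kinase, was at 7.53, 12.5 and 8.75 CPM in the HFD libraries, against 2.16, 3.43 and 4.73 CPM in the RD libraries, with 1.48 ± 0.34 (SE, edgeR adjusted p = 0.0272). Cenpe, a kinetochore motor, was at 8.49, 15.5 and 7.68 CPM in the HFD libraries, against 1.84, 2.88 and 5.05 CPM in the RD libraries, with a log2 fold change of 1.70 and an edgeR adjusted p just under the threshold. HFD library 6 was the highest of the 6 libraries for all 3. Mki67, the proliferation marker, overlapped between groups at 40.9, 70.9 and 24 CPM in the HFD libraries, against 9.18, 14.6 and 33.1 CPM in the RD libraries (edgeR adjusted p = 0.298). Without HFD library 6, or without RD library 5 or 7, no member was called; without HFD library 3 there were 2 calls, without HFD library 7 there was 1, and without RD library 8 there were 3. The list held 0 calls with only the 6 libraries fitted and 0 with the 12 female libraries, and 3 in DESeq2; its median was 0.58 without HFD library 6.

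In the glutathione list 1 of 16 genes rose and 1 fell. Hmox1, heme oxygenase 1, was at 73.3, 56.8 and 57.1 CPM in the HFD libraries, against 27.5, 21.6 and 33.0 CPM in the RD libraries, with a log2 fold change of 1.19 ± 0.24 (SE, edgeR adjusted p = 0.0127). Gsta4, the glutathione transferase that clears lipid aldehydes, was at 17.7, 13.5 and 11.4 CPM in the HFD libraries, against 42.8, 33.3 and 27.6 CPM in the RD libraries, with -1.28 ± 0.23 (SE, edgeR adjusted p = 0.00627). The groups were separate in both. The call of Hmox1 was lost without HFD library 3, RD library 5 or RD library 7, and that of Gsta4 was lost without RD library 5. Gpx3, a secreted glutathione peroxidase, was at 345, 167 and 373 CPM in the HFD libraries, against 902, 755 and 683 CPM in the RD libraries and did not pass (edgeR adjusted p = 0.130).

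Several abundant genes outside the lists were among the 78 whose calls held in all 6 fits; those given here were picked after their values were seen. Vldlr, a receptor that helps lipoprotein lipase deliver fatty acids, was at 181, 205 and 214 CPM in the HFD libraries, against 92.3, 75.3 and 80.7 CPM in the RD libraries, with a log2 fold change of 1.27 ± 0.23 (SE, edgeR adjusted p = 0.00569). Trp53inp2, a regulator of autophagy, was at 1060.0, 918 and 673 CPM in the HFD libraries, against 211, 250.4 and 162 CPM in the RD libraries, with 2.09 ± 0.30 (SE, edgeR adjusted p = 7.18e-04). Gpc1, a heparan sulfate proteoglycan, was at 66.9, 98.8 and 66.0 CPM in the HFD libraries, against 10.5, 13.8 and 10.2 CPM in the RD libraries, with 2.75 ± 0.34 (SE, edgeR adjusted p = 2.34e-04). In all 3 genes every HFD library was well above every RD library. Serpinf1, which encodes the secreted factor PEDF, was at 305, 435 and 356 CPM in the HFD libraries, against 127, 141 and 153 CPM in the RD libraries, with 1.38 ± 0.19 (SE, edgeR adjusted p = 4.63e-04). Anxa1, an annexin that limits inflammation, was at 426, 389.6 and 493 CPM in the HFD libraries, against 219, 188 and 237 CPM in the RD libraries, with 1.02 ± 0.18 (SE, edgeR adjusted p = 0.00378). The receptor tyrosine kinase gene Ret was at 101, 113 and 87.7 CPM in the HFD libraries, against 12.7, 8.87 and 17.1 CPM in the RD libraries, with 2.96 ± 0.37 (SE, edgeR adjusted p = 2.34e-04). The groups were apart in these 3 genes too.

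Among the 17 lower genes of that core, Cp, which encodes the copper-carrying ferroxidase ceruloplasmin, was at 59.3, 106 and 66.5 CPM in the HFD libraries, against 276, 293 and 252 CPM in the RD libraries. Its log2 fold change was -1.82 ± 0.31 (SE, edgeR adjusted p = 0.00333). Sfxn1, the mitochondrial serine transporter, was at 59.8, 55.3 and 63.5 CPM in the HFD libraries, against 267, 178 and 190.3 CPM in the RD libraries, with -1.83 ± 0.30 (SE, edgeR adjusted p = 0.00296). Ddo, D-aspartate oxidase, was at 4.43, 7.48 and 6.14 CPM in the HFD libraries, against 25.5, 27.9 and 16.0 CPM in the RD libraries, with -1.94 ± 0.30 (SE, edgeR adjusted p = 0.00171). Nmnat3, a mitochondrial enzyme of NAD synthesis, was at 6.62, 5.07 and 7.55 CPM in the HFD libraries, against 18.5, 13.4 and 12.3 CPM in the RD libraries, with -1.20 ± 0.18 (SE, edgeR adjusted p = 0.00132). The groups were apart in all 4 genes, which were also picked after their values were seen.

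**Figure D3:**
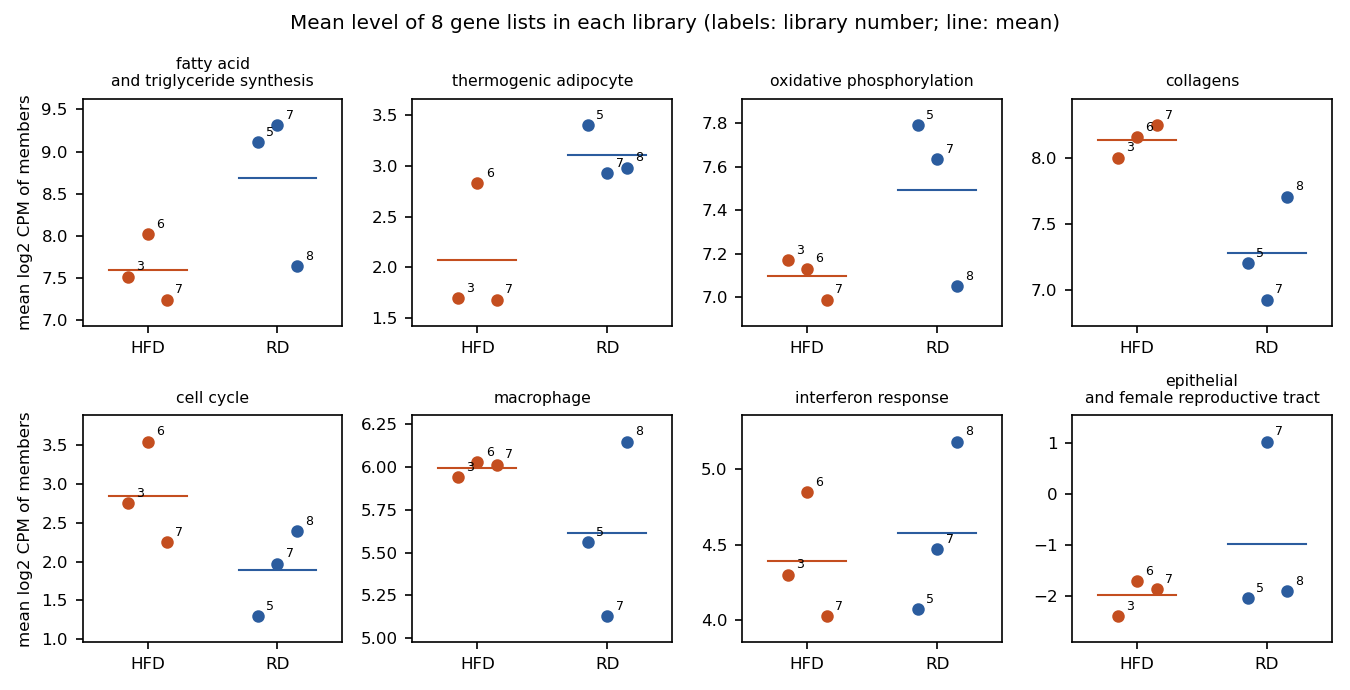
Mean log2 CPM of the members of 8 gene lists in each library, HFD left of RD, with library numbers beside the points and the group mean as a line; the axes do not start at 0. Collagen levels lie at 8.00 to 8.25 in HFD and 6.93 to 7.71 in RD libraries, RD library 8 lies apart from RD libraries 5 and 7 in fatty acid synthesis, and RD library 7 alone is high for the reproductive tract list.

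Mest, Klf14 and Lep lie close together on chromosome 6, which was noticed after their values were seen. On GRCm38 (GENCODE M21) Mest spans chromosome 6, 30723547 to 30748465 on the plus strand, Klf14 chromosome 6, 30956023 to 30959078 on the minus strand and Lep chromosome 6, 29060220 to 29073877 on the plus strand. Sfrp5 lies elsewhere, on chromosome 19, 42197971 to 42202252, minus strand. Of 40 tested genes described here that start within 2 Mb of Mest, 6 were called and all 6 rose; the window was chosen around Mest because Mest, Klf14 and Lep had been seen to lie together. Without these 3 genes 3 of 37 were called, 8.11% beside 2.08% of all genes, and without Copg2 as well, whose value is uncertain, 2 of 36. The median log2 fold change of the 40 was 0.22. Within 0.5 Mb, 4 of 13 were called: Cpa5, Mest, Copg2 and Klf14. The 2 further ones were Lep and Rbm28, a nucleolar RNA-binding protein. With Copg2 also left out, the 2 calls were Rbm28 and Cpa5. Cpa5 was near the floor, with means of 0.708 CPM in the HFD libraries and 0.00846 CPM in the RD libraries. Its log2 fold change was 5.93 ± 1.09 (SE, edgeR adjusted p = 0.00718).

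Copg2, a coatomer subunit, was at 152, 154 and 161 CPM in the HFD libraries, against 72.6, 67.4 and 60.3 CPM in the RD libraries, with a log2 fold change of 1.22 ± 0.15 (SE, edgeR adjusted p = 2.34e-04). It spans chromosome 6, 30747554 to 30896794 on the minus strand, so its end overlaps that of Mest on the other strand. The libraries were stranded, and the sources used here do not say whether counting used strand, so reads of the pair may be split wrongly and the Copg2 value is uncertain. Rbm28 was at 149.6, 216 and 124 CPM in the HFD libraries, against 65.1, 68.9 and 61.6 CPM in the RD libraries, with 1.32 ± 0.22 (SE, edgeR adjusted p = 0.00303). Cpa1, a pancreatic carboxypeptidase, was at 4.31, 0.156 and 0.174 CPM in the HFD libraries, against 0.0484, 0.241 and 0.0507 CPM in the RD libraries, high in HFD library 3, the library with pancreatic transcripts, and was not called (edgeR adjusted p = 0.148). Cep41, the nearest gene before Mest, had a log2 fold change of 0.67 (edgeR adjusted p = 0.219).

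**Figure D4:**
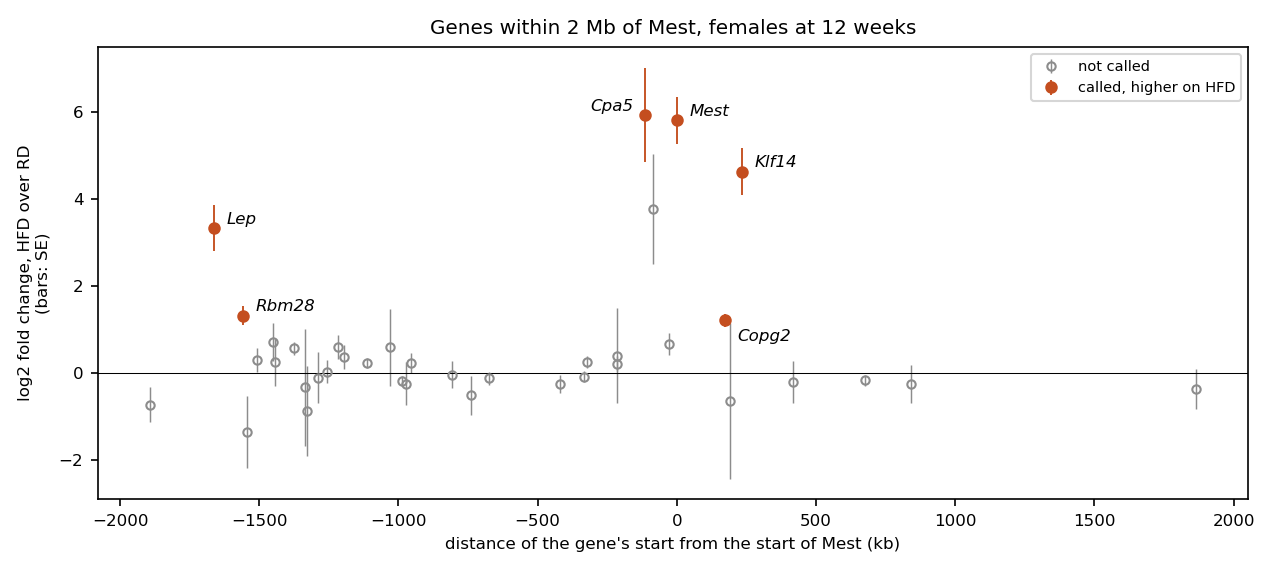
Log2 fold change, HFD over RD, with its SE, of 38 tested genes against the distance of their start from that of Mest; 2 genes with an SE of 2 or more, or with no counts, are left out. The 6 called genes, filled and named, lie above 1, and Cpa1, with an SE of 1.26, lies at 3.77 without a call.

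The same diet in 12-week males gave 5168 calls, 28.2% of the genes tested. The male groups also differed in epididymal transcripts, with 8 genes summing to 3536 to 5469 CPM on RD and 1.78 to 7.83 CPM on HFD. The part of these transcripts in the male calls was not tested. Of the 381 female calls, 228 were also called in males, which is 59.8% of the female and 4.41% of the male calls, and 225 of them had the same direction. The cohorts share no library. The median male log2 fold change was 1.03 for the 239 genes that rose in females, whose own median was 1.53, and -0.72 for the 142 that fell, whose own median was -1.36. The 3 with opposite directions included C6 and Serpina3b. The difference between the sexes was tested directly as the female minus the male diet response: 229 genes (1.25%) were called, 54 positive and 175 negative. Among males, HFD and RD libraries with the same number had weakly correlated deviations from their group means (0.108, 0.134 and 0.154). Unlike numbers reached 0.0155 among males, but 0.167 in 12-week and 0.265 in 2-week females, so the numbers may mark no pairs. In a fit of the 12-week cohort with the male numbers as a replicate block the count was 830, of which 71.7% were positive. It was 941 (70.0% positive) in that cohort without the block. Leaving out single female libraries gave 85, 99 and 123 calls (HFD libraries 3, 6 and 7) and 124, 222 and 84 (RD libraries 5, 7 and 8). Leaving out single male libraries gave 175, 156 and 50 (HFD libraries 2, 3 and 4) and 894, 79 and 100 (RD libraries 2, 3 and 4).

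Mest, Sfrp5 and Klf14 had a higher HFD to RD ratio in females than in males. In 12-week males Mest was at 789, 864 and 651 CPM on HFD and at 163, 122 and 104.7 CPM on RD, so HFD levels lay near those of HFD females while RD levels were higher than in RD females. The difference of the responses was 3.25 ± 0.63 (SE, edgeR adjusted p = 0.0157) for Mest, 3.55 ± 0.70 (SE, edgeR adjusted p = 0.0167) for Sfrp5 and 2.81 ± 0.66 (SE, edgeR adjusted p = 0.0436) for Klf14. Of the 12 fits without 1 library, the call for Mest was lost without RD female library 5 or 8 or HFD male library 4, that for Sfrp5 without HFD male library 4, and that for Klf14 in all but the fit without RD male library 2. Lep had a male log2 fold change of 1.78 ± 0.49 (SE, edgeR adjusted p = 0.0140) and a difference that did not pass, 1.55 ± 0.68 (SE, edgeR adjusted p = 0.229). Pkp1 was at 1.66, 4.79 and 0.800 CPM in HFD males and 2.03, 0.605 and 1.52 CPM in RD males, with a difference of 5.86 ± 1.23 (SE, edgeR adjusted p = 0.0247). Dclk3 and Slc38a3 rose in females and had negative, uncalled log2 fold changes in males, and their differences were 4.13 ± 0.84 (SE, edgeR adjusted p = 0.0208) and 4.43 ± 1.00 (SE, edgeR adjusted p = 0.0359). The calls for Pkp1, Dclk3 and Slc38a3 were lost in 7, 5 and 8 of the 12 fits, among them those without HFD female library 3, RD female library 5 or 8, or HFD male library 4.

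In the other direction, Il7r was higher on HFD in males. In females Il7r, the interleukin 7 receptor, was at 5.25, 8.17 and 7.79 CPM in the HFD libraries, against 4.39, 4.99 and 7.80 CPM in the RD libraries. In males it was at 62.4, 78.6 and 92.0 CPM on HFD and 4.82, 3.35 and 3.45 CPM on RD, a difference of -4.02 ± 0.42 (SE, edgeR adjusted p = 2.75e-04). Of the 21 macrophage genes 2, Cd68 and Emr1, had a called negative difference and none a positive one, where 1.25% of all genes tested had a called difference. With Itgax and Ctss of the lipid-associated macrophage list, the differences were -2.54 ± 0.48 (SE, edgeR adjusted p = 0.0124) for Cd68, -2.19 ± 0.37 (SE, edgeR adjusted p = 0.00644) for Emr1, -3.49 ± 0.60 (SE, edgeR adjusted p = 0.00671) for Itgax and -2.50 ± 0.34 (SE, edgeR adjusted p = 0.00137) for Ctss. The call for Cd68 was lost without HFD male library 4 or RD male library 3. The lipid-associated macrophage list had a median of 0.65 in females and 2.26 in males, with 1 and 13 of 19 genes higher. Over all 18325 genes tested, 239 were called higher in females and 2416 in males. Of the 19 genes, 5 had a called negative difference, Itgax and Ctss among them. The summed macrophage markers were at 2583 to 2871 CPM in HFD females and 1464 to 2699 CPM in RD females, and at 4111 to 5497 CPM in HFD males and 1530 to 1802 CPM in RD males.

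Of the 20 collagen genes 15 were higher on HFD in males, with a list median of 1.62, and of the 20 cell cycle genes 17 were, with a median of 1.89. Over all 18325 genes tested, 2416 were called higher in males. Of the collagen genes 0, and of the cell cycle genes 0, had a called difference between the female and male responses. None of the 25 fatty acid synthesis genes had one either. These counts of 0 lie near the 1.25% called among all genes and do not show that the responses were alike. The fatty acid synthesis list had medians of -1.10 in females and -0.43 in males. Il1rn and Mmp12, which rose in both sexes, had male log2 fold changes of 4.57 ± 0.52 (SE, edgeR adjusted p = 1.13e-05) and 5.91 ± 0.79 (SE, edgeR adjusted p = 5.75e-05). Ighm, called in females, had 1.03 ± 0.38 (SE, edgeR adjusted p = 0.0511) in males and a difference that did not pass, 1.46 ± 0.54 (SE, edgeR adjusted p = 0.164). C6, a late complement component, rose in females at 205, 208 and 176 CPM in the HFD libraries, against 42.0, 41.1 and 52.6 CPM in the RD libraries, with 2.12 ± 0.35 (SE, edgeR adjusted p = 0.00296). In males it was at 39.1, 35.6 and 43.8 CPM on HFD and 82.7, 95.9 and 51.9 CPM on RD, and the difference was 3.08 ± 0.49 (SE, edgeR adjusted p = 0.00361).

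Epididymal transcripts differed between the male groups and stand beside these differences. The 8 epididymal genes summed to 0.347 to 0.963 CPM in HFD females and 0.545 to 3.06 CPM in RD females, and to 1.78 to 7.83 CPM in HFD males and 3536 to 5469 CPM in RD males. In females Hoxa10, a homeobox gene of body position, was at 15.2, 21.7 and 18.5 CPM in the HFD libraries, against 16.4, 12.9 and 13.9 CPM in the RD libraries. In males it was at 0.0632, 0.469 and 0.0711 CPM on HFD and 4.18, 0.801 and 29.4 CPM on RD, with a difference of 6.17 ± 1.5 (SE, edgeR adjusted p = 0.0499), which held only without HFD male library 3 or RD male library 2 or 3. With the replicate block the edgeR adjusted p of Hoxa10 was 0.0887, against 0.0411 in the same 12-week cohort without the block. The part of the epididymal transcripts in this and the other differences was not tested. Serpina3b, a serine protease inhibitor, rose in females at 12.1, 43.8 and 19.2 CPM in the HFD libraries, against 6.56, 8.59 and 3.75 CPM in the RD libraries, and was at 2.42, 2.49 and 2.19 CPM in HFD males and 17.6, 15.9 and 32.7 CPM in RD males. Its difference was 5.21 ± 0.67 (SE, edgeR adjusted p = 0.00112).

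**Figure D5:**
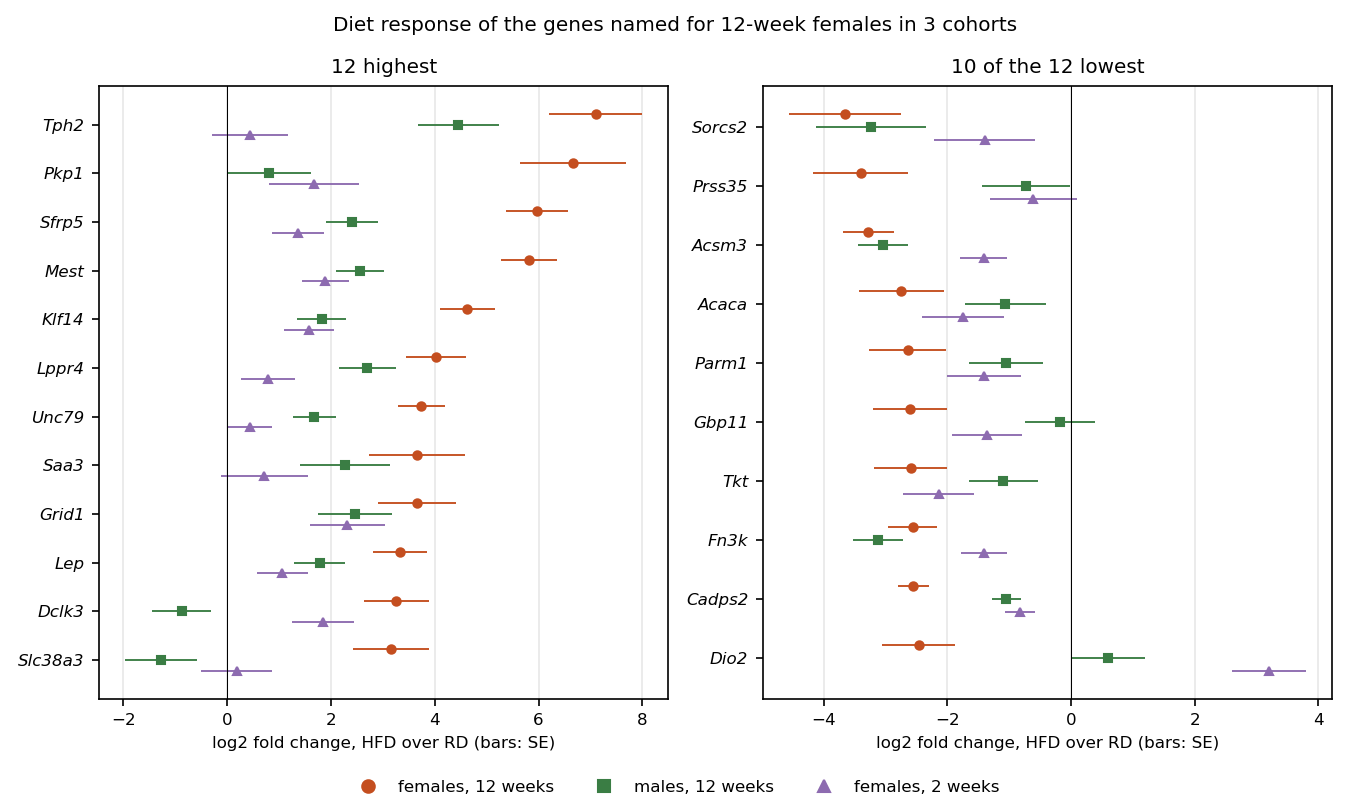
Log2 fold change, HFD over RD, with its SE, of the 12 highest and 10 of the 12 lowest genes in 12-week females (circles), 12-week males (squares) and 2-week females (triangles). Dclk3, Slc38a3 and Dio2 lie on opposite sides of 0 in females and males at 12 weeks, and Dio2 lies at -2.47 at 12 weeks and 3.20 at 2 weeks in females.

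After 2 weeks 43 genes were called in female fat (0.235% of those tested), 17 of which were also called at 12 weeks, which is 39.5% of the 2-week and 4.46% of the 12-week calls. Of the 17, 15 had the same direction, among them Cpt1a, Nedd9 and Ret, and 2 were opposite, Dio2 and Ppargc1a. The 12-week minus the 2-week response was called for 13 genes (0.0709%), 9 positive and 4 negative. The count was 7 without RD library 5 of the 12-week females, 79 without HFD library 2 of the 2-week females, and 0 of 16881 genes when only the 12 female libraries were fitted, where 2035 had an unadjusted edgeR p under 0.05; DESeq2 called 317. HFD library 1 of the 2-week females stood apart, with 5128 CPM of epithelial and reproductive tract markers in sum, where the RD libraries of that cohort held 13.0 to 16.8 CPM. Its 21 adipocyte markers summed to 18766 CPM, where the other HFD libraries of that cohort held 72245 and 61295 CPM and the RD libraries 54909 to 74441 CPM. The part of that library in the differences was not tested; without it 15 genes were called, and the log2 differences described next were 3.46 for Mest, 4.26 for Sfrp5, 6.15 for Tph2, 3.66 for Unc79, -4.80 for Ppargc1a, -5.11 for Dio2 and 2.40 for Insig1, all still called.

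Mest, Sfrp5, Tph2 and Unc79 had a higher HFD to RD ratio at 12 than at 2 weeks. At 2 weeks Mest was at 17.0, 127 and 55.2 CPM on HFD and 22.8, 14.3 and 16.6 CPM on RD, without a call (edgeR adjusted p = 0.0713), and the 12-week minus 2-week difference was 3.92 ± 0.64 (SE, edgeR adjusted p = 0.0143). The differences were 4.6 ± 0.72 (SE, edgeR adjusted p = 0.0103) for Sfrp5, 6.66 ± 1.10 (SE, edgeR adjusted p = 0.0148) for Tph2 and 3.30 ± 0.60 (SE, edgeR adjusted p = 0.0435) for Unc79. The calls for Mest and Sfrp5 were lost without 12-week RD library 5, and that for Mest also without 12-week RD library 8 or 2-week HFD library 5. Those for Tph2 and Unc79 were lost in 5 and 8 of the 12 fits, among them those without 12-week RD library 5 or 8. Ppargc1a had the opposite sign, at 40.8, 19.3 and 77.9 CPM on HFD and 4.42, 12.0 and 5.61 CPM on RD at 2 weeks, with a difference of -4.71 ± 0.69 (SE, edgeR adjusted p = 0.00956). Dio2 was at 108, 24 and 64.3 CPM on HFD and 4.68, 12.8 and 3.8 CPM on RD at 2 weeks, with -5.67 ± 0.84 (SE, edgeR adjusted p = 0.00956). Insig1, which holds back the sterol sensor SCAP, was lower on HFD at 2 weeks and had a positive, uncalled log2 fold change of 0.88 at 12 weeks, a difference of 2.70 ± 0.41 (SE, edgeR adjusted p = 0.00956).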

How the data were processed

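PolyA-selected, strand-preserving mRNA libraries were made from 200 ng of total RNA, per the labels. The table the authors deposited gives an expected count for each gene symbol, not normalized. Per the submitters' processing notes the tools include kallisto and the build is GRCm38; edgeR and DESeq2 are also named, and no role or version is given for any. These expected counts were rounded. All 24 visceral fat libraries (44.7 M to 105.4 M counts) were fitted in 8 groups with edgeR 4.0.16 (limma 3.58.1, R 4.3.3): filterByExpr by group, TMM, glmQLFit with robust = TRUE and glmQLFTest, with Benjamini-Hochberg adjustment over 18325 genes and calls at an adjusted p under 0.05. An SE is the log2 fold change over the square root of F. In the 24 pairs of libraries within a visceral fat group, none agreed within sampling noise. DESeq2 1.42.0, other scaling, no filter, fewer libraries and leaving out 1 library were the alternatives.

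The named genes are the 12 highest and 12 lowest called genes (mean log2 CPM of at least 1, groups not overlapping, no predicted-gene symbol), up to 6 members of each of 34 lists by smallest p, and the 5 highest and 5 lowest genes of each difference. The rule, the lists (604 symbols, 597 tested) and the libraries were chosen with earlier results of these data known. A few genes are not reported here: they stay in the fit and in the list counts, and are left out of the genes named, the figures that name genes and the counts near Mest. Lists are described by counts and medians, with no test. Male HFD and RD libraries with the same number had weakly correlated deviations from their group means (0.108, 0.134 and 0.154). The replicate block took the male numbers as pairs, although unlike numbers reached 0.167 in 12-week and 0.265 in 2-week females. Nothing in the labels says what a number marks. Gene positions come from GENCODE M21 (GRCm38) and promoters from RefSeq (GRCm38.p6).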

Additional observations from a re-analysis of the deposited data

Results flagged for a closer look

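Genes whose response to HFD differed between females and males at 12 weeks are given as the female minus the male log2 fold change, each tested directly in edgeR's quasi-likelihood fit. A positive value means a higher HFD to RD ratio in females. Libraries named in brackets are those whose absence ended the call. Pkp1 had a difference of 5.86 ± 1.23 (SE, edgeR adjusted p = 0.0247), and it was lost in 7 of 12 fits without 1 library (12-week HFD female 3 and 6, 12-week RD female 5 and 8, 12-week HFD male 2 and 4, 12-week RD male 4). Sfrp5 differed by 3.55 ± 0.70 (SE, edgeR adjusted p = 0.0167), and it was lost in 1 of 12 fits without 1 library (12-week HFD male 4). Mest stood at 3.25 ± 0.63 (SE, edgeR adjusted p = 0.0157), and it was lost in 3 of 12 fits without 1 library (12-week RD female 5 and 8, 12-week HFD male 4). Klf14 had a difference of 2.81 ± 0.66 (SE, edgeR adjusted p = 0.0436), and it was lost in 11 of 12 fits without 1 library (12-week HFD female 3, 6 and 7, 12-week RD female 5, 7 and 8, 12-week HFD male 2, 3 and 4, 12-week RD male 3 and 4). Dclk3 differed by 4.13 ± 0.84 (SE, edgeR adjusted p = 0.0208), and it was lost in 5 of 12 fits without 1 library (12-week HFD female 3, 12-week RD female 5 and 8, 12-week HFD male 4, 12-week RD male 4). Slc38a3 stood at 4.43 ± 1.00 (SE, edgeR adjusted p = 0.0359), and it was lost in 8 of 12 fits without 1 library (12-week HFD female 3, 6 and 7, 12-week RD female 5 and 8, 12-week HFD male 2 and 4, 12-week RD male 3). Cadps2 differed by -1.51 ± 0.34 (SE, edgeR adjusted p = 0.0357), and it was lost in 9 of 12 fits without 1 library (12-week HFD female 3, 6 and 7, 12-week RD female 5 and 8, 12-week HFD male 3 and 4, 12-week RD male 3 and 4). Gsta4 stood at 1.61 ± 0.32 (SE, edgeR adjusted p = 0.0201), and it was lost in 5 of 12 fits without 1 library (12-week HFD female 3, 12-week RD female 8, 12-week HFD male 4, 12-week RD male 3 and 4). Hoxa10 had a difference of 6.17 ± 1.5 (SE, edgeR adjusted p = 0.0499), and it was lost in 9 of 12 fits without 1 library (12-week HFD female 3, 6 and 7, 12-week RD female 5, 7 and 8, 12-week HFD male 2 and 4, 12-week RD male 4). Serpina3b differed by 5.21 ± 0.67 (SE, edgeR adjusted p = 0.00112), and it held in all 12 fits without 1 library. Dhrs9, a retinol dehydrogenase, stood at -5.38 ± 0.96 (SE, edgeR adjusted p = 0.00899), and it held in all 12 fits without 1 library. Trdn, triadin of the muscle calcium release complex, had a difference of -4.98 ± 0.74 (SE, edgeR adjusted p = 0.00278), and it held in all 12 fits without 1 library. Il7r differed by -4.02 ± 0.42 (SE, edgeR adjusted p = 2.75e-04), and it held in all 12 fits without 1 library. Gbp6, a guanylate-binding protein, stood at -3.93 ± 0.93 (SE, edgeR adjusted p = 0.0442), and it was lost in 9 of 12 fits without 1 library (12-week HFD female 3, 6 and 7, 12-week RD female 8, 12-week HFD male 2, 3 and 4, 12-week RD male 3 and 4). Values per library of genes not shown in the report follow. Dhrs9 was at 2.98, 5.73 and 5.16 CPM in HFD females and 11.2, 3.30 and 13.2 CPM in RD females, and at 22.6, 28.6 and 50 CPM in HFD males and 2.26, 1.78 and 0.835 CPM in RD males. Trdn was at 1.77, 1.25 and 3.40 CPM in HFD females and 1.90, 1.78 and 3.17 CPM in RD females, and at 4.87, 12.5 and 3.27 CPM in HFD males and 0.140, 0.294 and 0.263 CPM in RD males. Gbp6 was at 8.79, 23.0 and 11.3 CPM in HFD females and 23.9, 19.8 and 111 CPM in RD females, and at 28.2, 28.9 and 11.1 CPM in HFD males and 9.86, 1.67 and 4.53 CPM in RD males. With the replicate block by male numbers, the calls of Hoxa10 and Gsta4 were lost (edgeR adjusted p = 0.0887 and 0.0534, against 0.0411 and 0.0325 in the same 12-week cohort without it). Gbp6 was uncalled in that cohort both without the block (edgeR adjusted p = 0.0635) and with it (0.0766). The other differences between the sexes given here held with the block. The epididymal transcripts of the RD males stand beside these differences, and their part was not tested.

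Genes whose response differed between 12 and 2 weeks in females are given as the 12-week minus the 2-week log2 fold change from the same fit. Tph2 had a difference of 6.66 ± 1.10 (SE, edgeR adjusted p = 0.0148), and it was lost in 5 of 12 fits without 1 library (12-week HFD female 6, 12-week RD female 5 and 8, 2-week HFD female 5, 2-week RD female 1). Sfrp5 differed by 4.6 ± 0.72 (SE, edgeR adjusted p = 0.0103), and it was lost in 1 of 12 fits without 1 library (12-week RD female 5). Mest stood at 3.92 ± 0.64 (SE, edgeR adjusted p = 0.0143), and it was lost in 3 of 12 fits without 1 library (12-week RD female 5 and 8, 2-week HFD female 5). Unc79 had a difference of 3.30 ± 0.60 (SE, edgeR adjusted p = 0.0435), and it was lost in 8 of 12 fits without 1 library (12-week HFD female 3 and 7, 12-week RD female 5, 7 and 8, 2-week HFD female 5, 2-week RD female 2 and 4). Dio2 differed by -5.67 ± 0.84 (SE, edgeR adjusted p = 0.00956), and it held in all 12 fits without 1 library. Ppargc1a stood at -4.71 ± 0.69 (SE, edgeR adjusted p = 0.00956), and it held in all 12 fits without 1 library. Insig1 had a difference of 2.70 ± 0.41 (SE, edgeR adjusted p = 0.00956), and it held in all 12 fits without 1 library. Dusp8, a MAP kinase phosphatase, differed by -2.16 ± 0.35 (SE, edgeR adjusted p = 0.0125), and it was lost in 4 of 12 fits without 1 library (12-week HFD female 6 and 7, 12-week RD female 5, 2-week RD female 2). Dusp16, another MAP kinase phosphatase, stood at -1.66 ± 0.22 (SE, edgeR adjusted p = 0.00872), and it held in all 12 fits without 1 library. Dusp8 was at 12.4, 10.4 and 10.3 CPM on HFD and 15.5, 10.3 and 12.6 CPM on RD at 12 weeks, and at 16.1, 18.2 and 21.8 CPM on HFD and 5.43, 3.89 and 5.31 CPM on RD at 2 weeks. Dusp16 was at 27.5, 23.0 and 25.5 CPM on HFD and 38.3, 32.6 and 32.3 CPM on RD at 12 weeks, and at 62.7, 38.8 and 49.1 CPM on HFD and 21.9, 22 and 20.7 CPM on RD at 2 weeks. With only the 12 female libraries fitted, none of these differences was called. With a replicate block by the 2-week library numbers added there, their edgeR adjusted p was 0.374 to 0.430. HFD library 1 of the 2-week females, which held reproductive tract transcripts, stands beside these differences, and its part was not tested.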

How the results depend on the processing

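The number of genes called between HFD and RD in 12-week females was 381. It became 749 with only the 6 libraries fitted, of which 280 were among the 381. The count was 181 with the 12 female libraries and 1002 with DESeq2, and 92 to 305 when 1 library was left out (92 without RD library 5, 305 without RD library 8). The count stayed within 1.5 times with median-of-ratios size factors (393), without the filter (301) and with robust = FALSE (398), and 377, 299 and 380 of those genes were the same. The share of calls that were higher was 62.7%, and 80.4%, 77.2% and 81.2% without HFD library 3, 6 or 7. Of the 24 genes named by fold change, none reversed; 3 to 11 lost their call without 1 library, 7 with the 6 libraries, 10 with the 12 female libraries and 4 without the filter. The difference between the sexes, 229 genes (23.6% positive), became 941 (70.0% positive) in the 12-week cohort alone, 830 (71.7% positive) with the replicate block added there, and 1364 (50.9% positive) with DESeq2; without 1 library it was 50 to 894. The difference between 12 and 2 weeks, 13 genes, became 0 of 16881 with the 12 female libraries, where 2035 had an unadjusted edgeR p under 0.05, 1 with the replicate block and 317 with DESeq2; without 1 library it was 7 to 79. Among 2-week females the 2 shared numbers had correlations of 0.119 and -0.0999, which cannot decide whether samples of 1 number share more than that number. No paired analysis was possible for the 12-week female contrast because its groups share only number 7. With the 12 female libraries the lower calls of the thermogenic (2) and reproductive tract (2) lists and the higher calls of the chemokine (2), lipid-associated macrophage (1) and cell cycle (3) lists fell to 0. Cyp11a1 had a log2 fold change of -6.80, 0.18 without RD library 7 and -7.39 without RD library 5. The cause of each change between settings was not tested.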
